A study of Mus musculus with 44 samples.

Results

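The genes examined here mark the subfields of the mouse hippocampus. They were taken by symbol, 10 of the 27179 gene identifiers counted in each library: Prox1, Dsp, Tdo2 and Trpc6 for the granule cells of the dentate gyrus, Wfs1, Fibcd1 and Mpped1 for the pyramidal cells of CA1, Rgs14 and Amigo2 for those of CA2, and Iyd for those of CA3. The count data covered dorsal hippocampi of 36 mice, 1 mouse per library, in 6 groups of 6 with 3 animals labelled male and 3 labelled female in each. Wild-type (WT) mice and mice homozygous for the Kdm5b ΔARID allele (Kdm5bΔ/Δ, called mutant here) were sampled at baseline (0 h) or at 1 h or 3 h after contextual fear conditioning, in which a mouse explores a chamber and then receives foot shocks. Mice were 7 to 8 weeks old F2 offspring of an intercross between C57BL/6J and 129S2/Sv, and the allele was present in every cell rather than in a chosen neuron type. KDM5B is a histone lysine demethylase, and the ΔARID protein lacks the ARID domain. The questions were whether the level of any subfield gene differed between genotypes, and whether it moved after training.

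The hippocampus is wired as a loop in which entorhinal input reaches dentate granule cells, whose mossy fibres contact CA3, and CA3 axons reach CA1, with the small field CA2 between them. Each field keeps its own set of transcription factors, adhesion molecules and signalling proteins, and these are widely used to tell the fields apart in tissue sections and in dissected tissue. In a whole dissected hippocampus the counts of such a gene add over all cells, so fewer cells of a field and less RNA per cell cannot be told apart. The cut at dissection also sets how much of each field enters a library.

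Assigned reads per library ran from 40274435 to 107000233 (median 66549999), and no 2 libraries of a group held identical counts in 90 pairs compared. In 2 libraries, labelled WT 1 h male 1 and mutant 3 h female 2, the sex-linked transcripts went against the labelled sex. Levels are given as CPM, the reads of a gene as a share of the scaled library total. Kdm5b itself was at 79.4 CPM in the former, the lowest of the 18 WT libraries, and at 93.8 CPM in the latter, the highest of the 18 mutant libraries. Mutant libraries averaged 83.8 ± 4.82 CPM of Kdm5b and WT libraries 88.7 ± 4.21 (SD, n = 18 each), a log2 fold change of -0.08 (SE 0.02, adjusted p = 0.0581) in the pooled fit. Without the 2 libraries it was -0.11 (SE 0.02, adjusted p = 0.00113). Since gene counts include exons outside the deleted part, the level does not check the genotype. C1ql2, a further dentate marker that was higher in mutants in the pooled fit, was at 64.2 CPM in the library labelled WT 1 h male 1, the highest of its group of 6 and the third of the 18 WT libraries, and at 28.4 CPM in the one labelled mutant 3 h female 2, the lowest of the 18 mutant libraries. Whether the 2 samples were exchanged was not tested. Fold changes of members that reached an unadjusted p under 0.05, and marker genes whose call changes, are also given without them. Levels and correlations include them. Markers of neighbouring tissue were detected in every library, and summed choroid plexus markers (Ttr, Folr1, Kl, Kcnj13 and Clic6) had the widest range, from 42.2 to 7910.5 CPM.

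The members lie on 8 chromosomes (GRCm38). Dsp is at chr13:38151294-38198577 and Trpc6 at chr9:8543867-8680752 on the plus strand. Of the CA1 genes, Wfs1 is at chr5:36966104-36988982 and Fibcd1 at chr2:31813290-31846964 on the minus strand, and Mpped1 is at chr15:83779472-83858487 on the plus strand. Rgs14 is at chr13:55369732-55384687 (plus), Amigo2 at chr15:97244074-97247287 (minus) and Iyd at chr10:3540274-3554880 (plus).

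All 10 genes were detected in all 36 libraries, and the lowest count was 62 reads, for Iyd in the library labelled mutant 3 h female 2. Per kilobase of exon, Wfs1 had the highest mean level at 65.7 ± 15.1 CPM per kb (SD, n = 36). Mpped1 followed at 50.2 ± 5.76, Fibcd1 at 36.5 ± 5.62 and Rgs14 at 30.9 ± 4.01 CPM per kb. The dentate genes Dsp and Prox1 were at 11.3 ± 3.16 and 9.67 ± 1.67 CPM per kb, and Amigo2 was at 7.58 ± 1.16. Trpc6 at 3.99 ± 0.918, Iyd at 2.51 ± 1.17 and Tdo2 at 2.26 ± 0.547 CPM per kb were the lowest. Of the 9 neighbouring pairs in this order, Rgs14 and Dsp were the pair whose ranges over libraries did not overlap. Dsp exceeded Prox1 in 24 of 36 libraries and Iyd exceeded Tdo2 in 23, so the order within those pairs was not fixed.

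**Figure D1:**
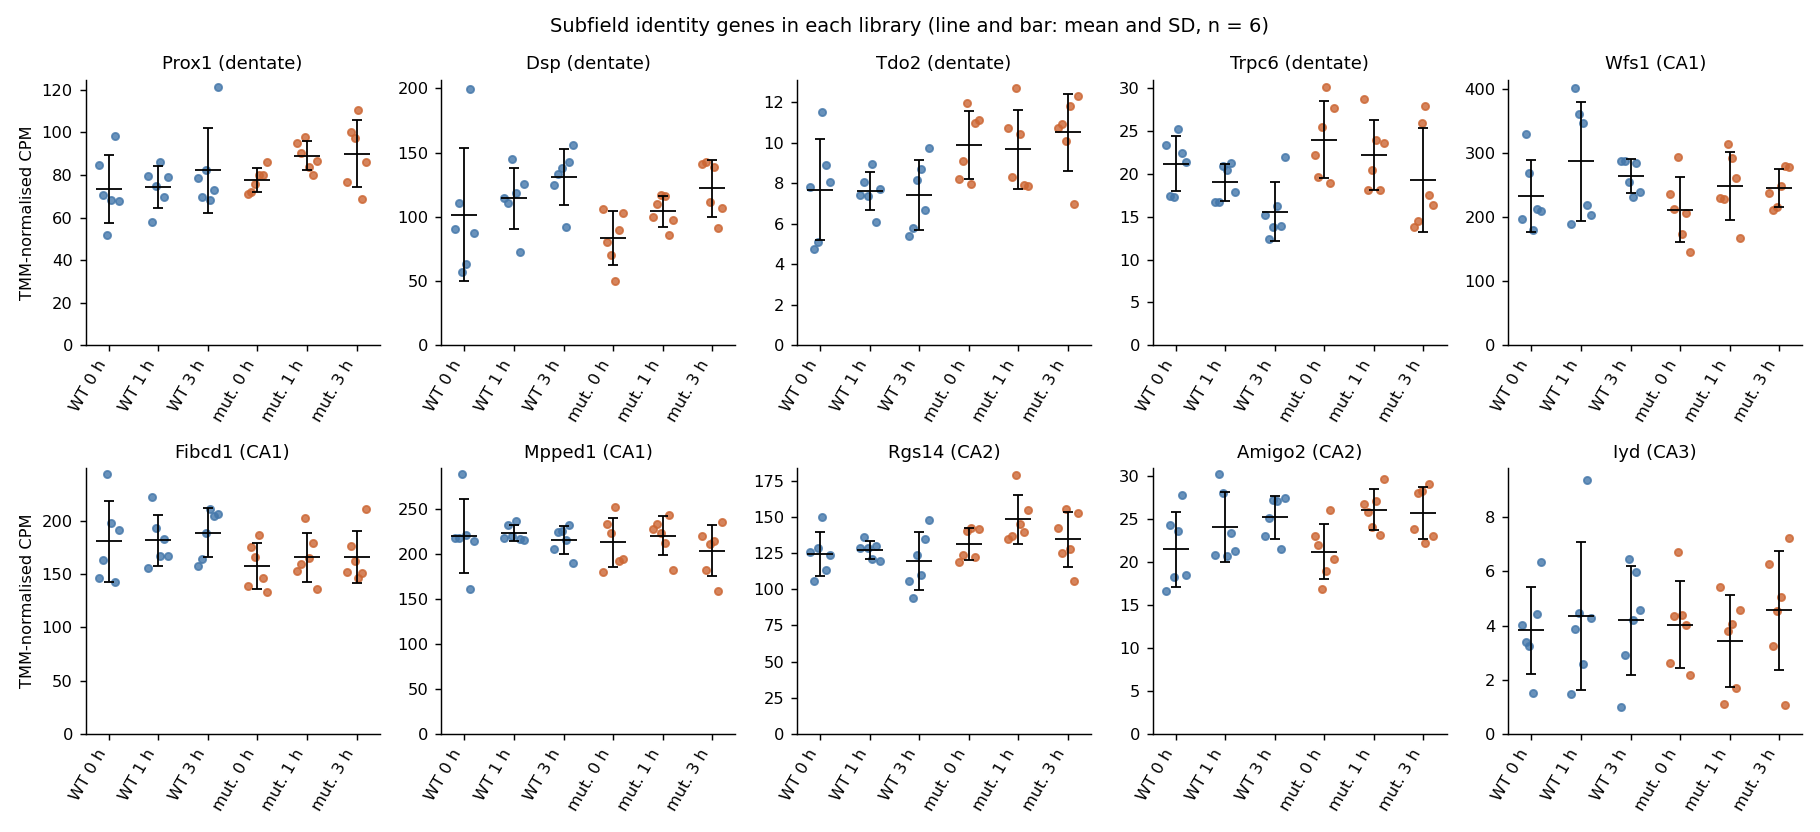
Level of each subfield gene in each of 36 libraries, in normalised CPM on a linear axis from 0, with 6 mice per group and the mean and SD as a line and bars. Tdo2 sat higher in the mutant groups (means 9.66 to 10.5 CPM) than in the WT groups (7.41 to 7.68 CPM), whereas Iyd spread from 0.98 to 9.38 CPM with no order by group.

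The spread between animals differed by gene. Iyd had the largest coefficient of variation over all libraries at 46.7%, with a 9.55-fold distance between the lowest and the highest library. Dsp followed at 27.9% and a 3.98-fold distance, and Tdo2, Trpc6 and Wfs1 lay at 24.2%, 23% and 23%. Mpped1 was the steadiest at 11.5%, and Rgs14, Amigo2, Fibcd1 and Prox1 lay between 13% and 17.3%. When the 6 groups were ordered by mean for each gene, 1 of the 50 gaps between neighbouring groups exceeded the larger of their 2 SDs, that of Trpc6 between WT 1 h and WT 3 h (a gap of 3.43 CPM against an SD of 3.41). The library WT 3 h female 3 held the highest value of its group for 6 of the 10 genes, as did mutant 1 h male 3, and mutant 3 h female 2 held the lowest of its group for 6.

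The dentate genes are described first, with the sequence before the start sites of Prox1, Dsp and Tdo2, because Tdo2 was the gene whose level differed between genotypes after adjustment. As background, KDM5B removes a histone methyl mark found at active promoters, many of them rich in the dinucleotide CG, and chromatin was not measured in these libraries. The RefSeq windows (GRCm38.p6, 5′ to 3′ on the gene's strand, 250 bases ending at the base before the start) have each CG in capitals. Prox1 has a second annotated start, whose window held 11 CG and is not printed. The window of Trpc6 ends at a start that lies within the gene span given above, and it is not printed either.
Prox1, chr1:190170828-190171077 (minus strand): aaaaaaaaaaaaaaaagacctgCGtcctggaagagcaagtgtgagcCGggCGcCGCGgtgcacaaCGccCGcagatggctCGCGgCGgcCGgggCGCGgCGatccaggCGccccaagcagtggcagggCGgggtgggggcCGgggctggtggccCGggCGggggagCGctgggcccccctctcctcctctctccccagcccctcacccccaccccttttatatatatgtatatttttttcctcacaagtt
Dsp, chr13:38151044-38151293 (plus strand): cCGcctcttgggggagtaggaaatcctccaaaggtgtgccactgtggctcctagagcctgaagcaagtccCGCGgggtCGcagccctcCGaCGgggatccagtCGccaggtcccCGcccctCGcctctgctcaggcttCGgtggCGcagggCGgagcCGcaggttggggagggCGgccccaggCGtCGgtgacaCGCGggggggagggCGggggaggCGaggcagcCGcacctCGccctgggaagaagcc
Tdo2, chr3:81975729-81975978 (minus strand): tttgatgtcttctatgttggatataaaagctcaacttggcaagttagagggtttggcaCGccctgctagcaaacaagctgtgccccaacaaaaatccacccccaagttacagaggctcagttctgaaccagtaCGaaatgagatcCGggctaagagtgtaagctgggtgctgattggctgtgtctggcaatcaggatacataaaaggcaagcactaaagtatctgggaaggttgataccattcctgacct
The Tdo2 window held 3 CG, and 37.8% of 32851 such windows in the genome held no more. Trpc6 held 12, Prox1 20 and Dsp 22, against a median of 6 over all windows. Among the other members, Iyd held 5, Wfs1 23, Fibcd1 34 and Amigo2 38, and the 2 annotated starts of Mpped1 held 47 and 2. TATAAA, searched on both strands, occurred once in the windows of Tdo2, Iyd and the first Prox1 start and in 12.4% of all windows. CAGATG, a form of the E-box bound by neuronal bHLH factors, was likewise searched on both strands. It occurred once each in Prox1, Wfs1 and Iyd and in 14.4% of all windows. Of the 10 members, 9 had a window, and Rgs14 had none in the table used.

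Tdo2 encodes tryptophan dioxygenase, which opens the kynurenine pathway of tryptophan breakdown, and it lies on chr3:81958412-81975728 (GRCm38, minus strand). At 0 h its lowest, median and highest levels were 4.74, 7.93 and 11.5 CPM in WT and 7.95, 10.03 and 11.97 CPM in mutants. At 1 h they were 6.07, 7.56 and 8.92 CPM in WT and 7.87, 9.36 and 12.7 CPM in mutants. At 3 h they were 5.41, 7.41 and 9.75 CPM in WT and 6.96, 10.8 and 12.3 CPM in mutants. The groups overlapped at each time, but 17 of 18 mutant libraries lay above the WT mean of their own time, the exception being the library labelled mutant 3 h female 2. Over all times Tdo2 was at 10 ± 1.77 CPM in mutants and 7.56 ± 1.73 CPM in WT (SD, n = 18 each). In a fit of all 36 libraries with time and sex, Tdo2 was higher in mutants by a log2 fold change of 0.41 (SE 0.10, adjusted p = 0.0243). It was the 1 member called, where 1.3% of the 18186 genes tested were called. Without the 2 libraries that went against their labelled sex, the log2 fold change was 0.45 (SE 0.10, adjusted p = 0.00816).

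Within single times the Tdo2 difference on the log2 scale was 0.39 at 0 h, with an SE of 0.18 and an adjusted p of 0.794. It was 0.34 at 1 h, with an SE of 0.12 and an adjusted p of 0.437, and 0.51 at 3 h, with an SE of 0.16 and an adjusted p of 0.682. None passed adjustment with 6 mice per group, and no member did at any single time. The share of all genes called was 0% at 0 h, 0% at 1 h and 0.0115% at 3 h. Without the library that went against its labelled sex, the values were 0.32 (SE 0.13) at 1 h and 0.63 (SE 0.12) at 3 h, with adjusted p of 0.434 and 0.105. These comparisons use the same libraries as the pooled fit and are not further evidence for it.

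**Figure D2:**
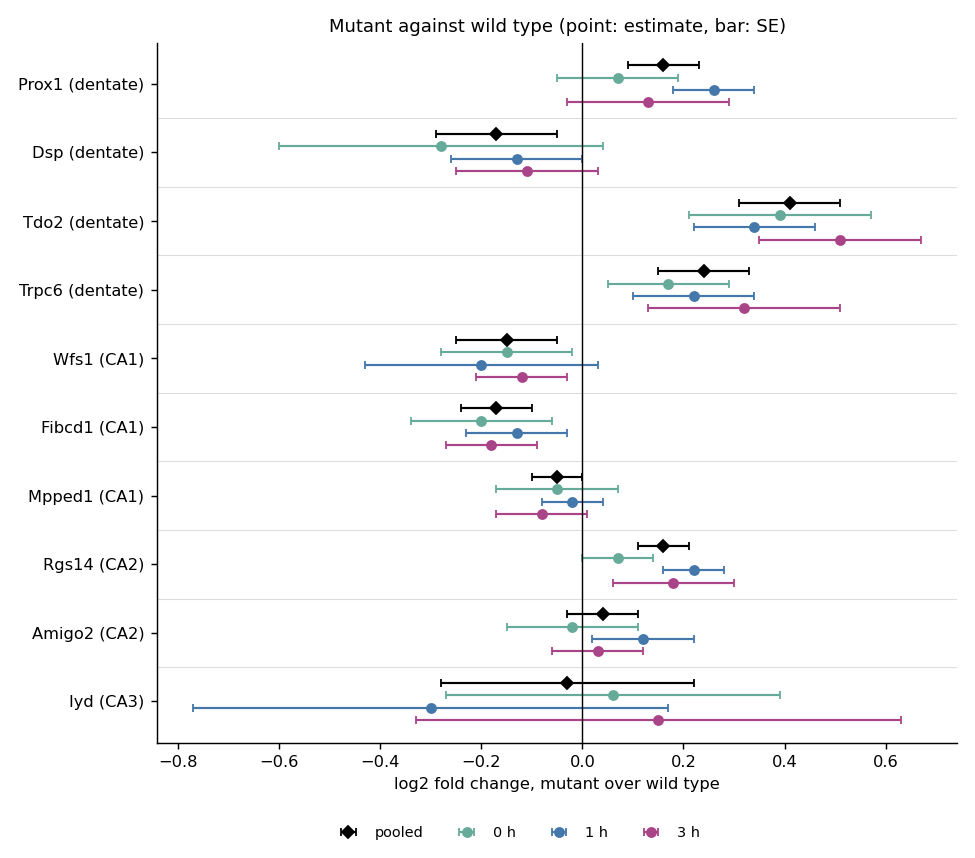
Log2 fold change of mutant over WT for each subfield gene (points) with its SE (bars), pooled over 36 libraries (diamonds) and at 0 h, 1 h and 3 h (12 libraries each). Tdo2 is to the right of 0 in each comparison, from 0.34 to 0.51, and Dsp is to the left, from -0.28 to -0.11.

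The other dentate genes did not pass adjustment for genotype. Prox1, the homeobox factor that sets and maintains granule cell identity, was at 85.5 ± 11.37 CPM in mutants and 76.7 ± 15.38 CPM in WT (SD, n = 18 each). Its lowest, median and highest values were 68.7, 85.1 and 110.7 CPM in mutants and 51.9, 73.8 and 121.3 CPM in WT, so the genotypes overlapped across most of their range. The pooled log2 fold change was 0.16 (SE 0.07, adjusted p = 0.304), and 0.19 (SE 0.07, adjusted p = 0.177) without the 2 libraries. Prox1 (chr1:190118035-190170827) is the 1 member on the chromosome of Kdm5b, 55.5 Mb away. In an F2 intercross, the allele and any strain haplotype still linked to it cannot be told apart at such a gene.

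Trpc6, a cation channel of the TRPC family opened by diacylglycerol, was at 21.8 ± 5.05 CPM in mutants and 18.6 ± 3.67 CPM in WT. Its lowest, median and highest values were 13.8, 21.3 and 30.1 CPM in mutants and 12.4, 17.6 and 25.2 CPM in WT. The log2 fold change was 0.24 (SE 0.09, adjusted p = 0.154), and it was 0.24 (SE 0.09, adjusted p = 0.144) without the 2 libraries. Dsp, which encodes desmoplakin, the protein that ties desmosomes to intermediate filaments, had a value of the opposite sign. It was at 103.2 ± 24.09 CPM in mutants and 115.6 ± 35.40 CPM in WT, a log2 fold change of -0.17 (SE 0.12, adjusted p = 0.547). The dentate genes thus did not share a direction by genotype.

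Among the CA1 genes, Fibcd1, a transmembrane receptor with a fibrinogen C domain, had the largest pooled difference with all libraries, though not without the 2 libraries. Its lowest, median and highest values were 133.0, 160.6 and 210.5 CPM in mutants and 142.2, 185.8 and 243.3 CPM in WT. In 15 of 18 mutant libraries Fibcd1 was below the WT median. The log2 fold change was -0.17 (SE 0.07, adjusted p = 0.204), and -0.18 (SE 0.07, adjusted p = 0.174) without the 2 libraries. Wfs1, the endoplasmic reticulum membrane protein wolframin, was at 235.6 ± 46.32 CPM in mutants and 261.7 ± 64.84 CPM in WT, with a log2 fold change of -0.15 (SE 0.10, adjusted p = 0.511). Without the 2 libraries that value was -0.20 (SE 0.09, adjusted p = 0.25). Mpped1, a metallophosphoesterase, was at 212.0 ± 25.34 and 219.3 ± 24.30 CPM, a log2 fold change of -0.05 (SE 0.05). All 3 CA1 genes had a negative sign and none passed adjustment, whereas 4 of 6 further CA1 markers had a positive sign (median log2 fold change 0.02).

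Rgs14, a scaffold of G protein and Ras signalling known for holding back synaptic plasticity in CA2, was at 138.1 ± 16.73 CPM in mutants and 123.6 ± 14.33 CPM in WT. Its lowest, median and highest values were 105.5, 139.6 and 179.1 CPM in mutants and 94.1, 124.6 and 149.6 CPM in WT. The pooled log2 fold change was 0.16 (SE 0.05, adjusted p = 0.134), and 0.18 (SE 0.05, adjusted p = 0.063) without the 2 libraries. Amigo2, an adhesion protein with leucine-rich repeats, was at 24.3 ± 3.55 and 23.6 ± 3.85 CPM, a log2 fold change of 0.04 (SE 0.07). Iyd, iodotyrosine deiodinase, was at 4.01 ± 1.80 CPM in mutants and 4.12 ± 2.04 CPM in WT. Its log2 fold change of -0.03 had an SE of 0.25, the widest of the 10. At an unadjusted p under 0.05, 5 of the 10 members differed in the pooled fit (4 higher and 1 lower), where 15.2% of all genes did. The median absolute log2 fold change was 0.16 over the members and 0.05 over all genes tested. The members also exceeded all genes in comparisons not of genotype. Examples are mutants at 3 h over 0 h (0.20 against 0.08) and sex as labelled (0.07 against 0.04). In the difference between genotypes in the 3 h response they did not (0.06 against 0.07).

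At 1 h, Prox1 and Rgs14 had an unadjusted p under 0.05 beside Tdo2. Prox1 ran from 57.7 through a median of 76.9 to 85.9 CPM over WT libraries, and from 80.0 through 88.5 to 97.8 CPM over mutant libraries. All 6 mutant libraries were above the WT mean and 4 were above every WT library, with a log2 fold change of 0.26 (SE 0.08, adjusted p = 0.402). Rgs14 ran from 119.7 through 128.4 to 135.7 CPM over WT libraries, and from 134.5 through 142.2 to 179.1 CPM over mutant libraries. There 5 of 6 mutant libraries were above every WT library, with a log2 fold change of 0.22 (SE 0.06, adjusted p = 0.346). Without the library labelled WT 1 h male 1 the values were 0.28 (SE 0.09, adjusted p = 0.297) for Prox1 and 0.22 (SE 0.07, adjusted p = 0.267) for Rgs14. At an unadjusted p under 0.05, 3 members were higher in mutants at 1 h, 1 was at 0 h and 1 at 3 h, against 8.61%, 6.15% and 6.36% of all genes. Rgs14 at 3 h was at 0.18 (SE 0.12), and leaving out mutant 3 h female 2 moved it to 0.26 (SE 0.11, adjusted p = 0.587).

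The response to training was examined within each genotype, where the comparisons share their libraries of each time, and no member passed adjustment in edgeR. In WT the share of all genes called was 0% at 1 h, 0% at 3 h and 0% from 1 h to 3 h. The study, using DESeq2, reported Fosb, Npas4 and Egr3 as increased in WT at 1 h. A share of 0% here thus does not show that WT lacked a response. Trpc6 had the largest difference in WT. Its lowest, median and highest levels were 17.3, 21.9 and 25.2 CPM at 0 h, 16.7, 19.2 and 21.3 CPM at 1 h, and 12.4, 14.6 and 22.02 CPM at 3 h. Of the 6 WT libraries at 3 h, 5 were below every library at 0 h, and WT 3 h female 3 was the exception. The log2 fold change from 0 h to 3 h was -0.45 (SE 0.11, adjusted p = 0.421), and that from 1 h to 3 h was -0.29 (SE 0.11, adjusted p = 0.574). Without the library labelled WT 1 h male 1 the latter was -0.31 (SE 0.12, adjusted p = 0.503). DESeq2 with sex as a covariate called the 3 h difference (log2 fold change -0.45, adjusted p = 0.0323), and the other fits of it did not, with adjusted p up to 0.76. At an unadjusted p under 0.05 in edgeR, 1 member was lower at 3 h and 1 from 1 h to 3 h, where 8.23% and 7.41% of all genes passed, and 0 members did at 1 h, where 5.36% passed. Leaving out the library labelled WT 1 h male 1 made that 1 member, Wfs1 (unadjusted p = 0.0239 in edgeR). Over all comparisons, DESeq2 with or without sex called no member other than Tdo2 in the pooled genotype fit and, with sex, Trpc6 here.

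**Figure D3:**
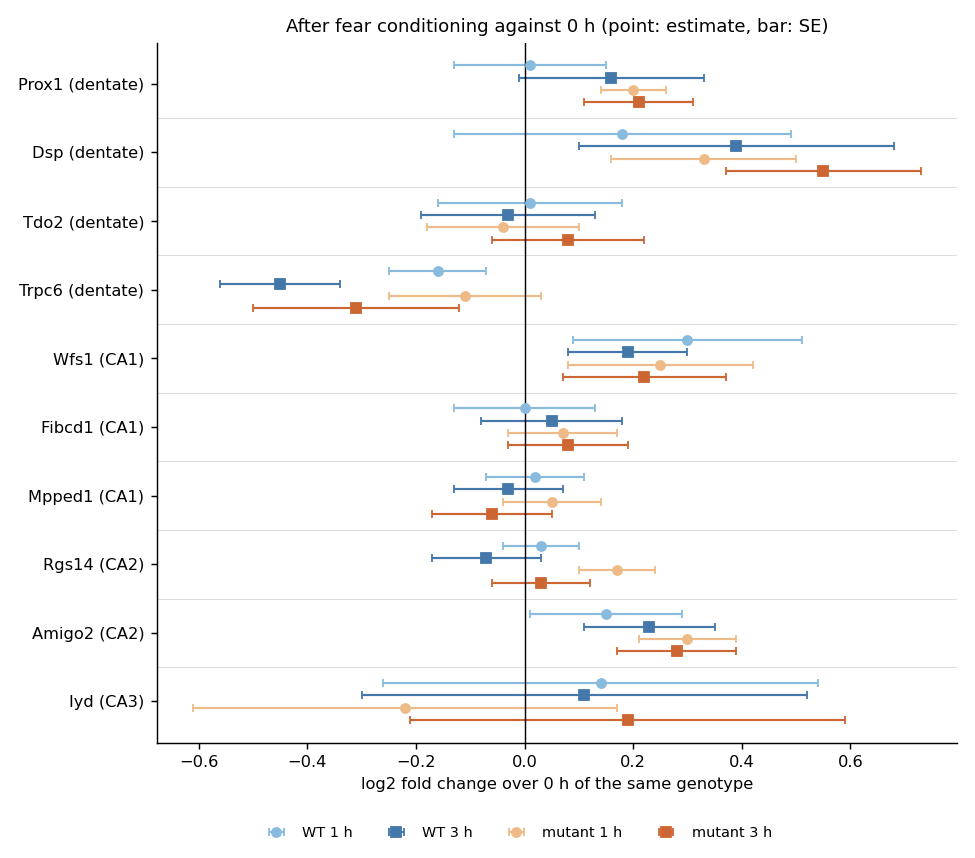
Log2 fold change of each subfield gene at 1 h (circles) and 3 h (squares) over 0 h of the same genotype, with its SE (bars), 12 libraries per comparison. Trpc6 in WT at 3 h is at -0.45 and Dsp in mutants at 3 h is at 0.55, and neither passed adjustment in edgeR.

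In mutants, 0.312% of all genes were called at 1 h, 0% at 3 h and 0% from 1 h to 3 h, and none of the members. Amigo2 in mutants ran from 16.9 through 21.2 to 26.1 CPM at 0 h, from 23.1 through 26.2 to 29.7 CPM at 1 h and from 22.2 through 25.9 to 29.0 CPM at 3 h. All 6 libraries at each later time were above the 0 h mean, 3 of them above every 0 h library. The log2 fold changes were 0.30 at 1 h (SE 0.09, adjusted p = 0.237) and 0.28 at 3 h (SE 0.11, adjusted p = 0.491), the latter being 0.23 (SE 0.11, adjusted p = 0.452) without the library labelled mutant 3 h female 2. Prox1 in mutants ran from 71.3 through 77.9 to 86.3 CPM at 0 h and from 80.0 to 97.8 CPM at 1 h, so that the fitted log2 difference was 0.20 (SE 0.06, adjusted p = 0.214). Rgs14 averaged 131.3 CPM at 0 h and 148.2 CPM at 1 h, with a log2 difference of 0.17 (SE 0.07, adjusted p = 0.401). These 3 genes had an unadjusted p under 0.05 at 1 h, where 11.1% of all genes did.

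Dsp in mutants ran from 50.1 through 84.9 to 105.9 CPM at 0 h and from 91.4 through 125.1 to 143.0 CPM at 3 h. At 3 h, 5 of 6 libraries were above every 0 h library, and the log2 fold change was 0.55 (SE 0.18, adjusted p = 0.439). It was 0.61 (SE 0.19, adjusted p = 0.27) without the library labelled mutant 3 h female 2. In WT the Dsp means were 101.4 ± 51.76, 114.3 ± 23.85 and 131.1 ± 21.88 CPM at 0 h, 1 h and 3 h, and the 0 h group included both 57.0 and 199.2 CPM. At 3 h in mutants, Dsp and Amigo2 were the 2 members with an unadjusted p under 0.05, where 8.57% of all genes passed, and from 1 h to 3 h there were 0, where 8.04% passed. Without the library labelled mutant 3 h female 2, Prox1 at 3 h over 0 h was at 0.30 (SE 0.08, adjusted p = 0.189, against 0.21 with it), and Dsp from 1 h to 3 h was at 0.29 (SE 0.10, adjusted p = 0.383, against 0.22 with it).

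Whether the response differed by genotype was tested directly with an interaction term in 24 libraries. No member was called at 1 h or 3 h, where 0% of all genes were called in each. The differences of response (mutant minus WT, log2) ran from -0.41 (Iyd, SE 0.59) to 0.19 (Prox1, SE 0.15) at 1 h and from -0.04 (Mpped1, SE 0.15) to 0.18 (Dsp, SE 0.35) at 3 h. At an unadjusted p under 0.05 there were 0 members at either time, against 3.78% and 1.52% of all genes. With the 2 libraries left out, the differences ran from -0.59 (Iyd, SE 0.57) to 0.22 (Prox1, SE 0.16) at 1 h and from -0.01 (Wfs1, SE 0.20) to 0.26 (Dsp, SE 0.36) at 3 h, again with 0 members at an unadjusted p under 0.05. Side by side, the 3 h value of Trpc6 was -0.45 in WT and -0.31 (SE 0.19) in mutants, that of Amigo2 was 0.23 (SE 0.12) in WT and 0.28 in mutants, and that of Dsp was 0.39 (SE 0.29) in WT and 0.55 in mutants. Wfs1 was positive in all 4 comparisons with 0 h, from 0.19 to 0.30, with the WT 1 h value at 0.43 (SE 0.16, adjusted p = 0.679) without the library labelled WT 1 h male 1. Tdo2 lay between -0.04 and 0.08, its mutant 3 h value of 0.08 becoming 0.18 (SE 0.11) without mutant 3 h female 2. Hence the WT difference of Trpc6 at 3 h and the mutant differences of Amigo2 and Dsp are not shown to be particular to a genotype. Between sexes as labelled no member was called either, where 0.0825% of all genes were. The female minus male log2 fold changes ran from -0.19 (Wfs1, SE 0.10) to 0.18 (Trpc6, SE 0.09), with 0 members at an unadjusted p under 0.05 against 5.08% of all genes. Without the 2 libraries that went against their labelled sex, Wfs1 was at -0.25 (SE 0.09, adjusted p = 0.546) and became the 1 member at an unadjusted p under 0.05 (0.0139).

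How the members varied together was described by the Pearson correlation of log2 CPM over the 36 libraries, which share tissue, dissection and depth differences and for which no test is given. The 10 pairs within a subfield had a median r of 0.37 (from -0.35 to 0.58, 8 positive), and the 35 pairs between subfields had a median of 0.04 (from -0.46 to 0.60, 18 positive). Among the dentate genes, Prox1 correlated with Tdo2 (r = 0.55, Spearman's rho = 0.52), Dsp (r = 0.51, rho = 0.44) and Trpc6 (r = 0.34, rho = 0.35). Dsp and Trpc6 ran against each other (r = -0.35, rho = -0.33), and as deviations from the 6 group means their r was -0.07. Fibcd1 and Mpped1 of CA1 had r = 0.58 (rho = 0.53). The CA2 genes Rgs14 and Amigo2 had r = -0.01. Of 12 pairs of a dentate gene with a CA1 gene, 11 were negative, with a median r of -0.23. The largest r between subfields was that of Tdo2 and Rgs14, at 0.60 (rho = 0.49) and 0.54 as deviations from group means.

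**Figure D4:**
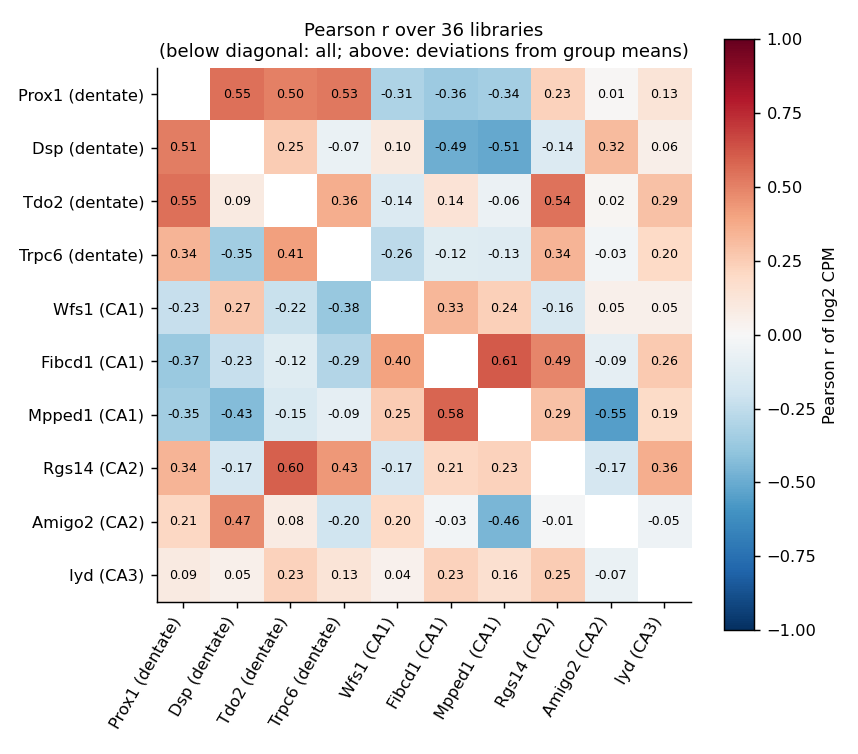
Pearson r between subfield genes over 36 libraries, from log2 CPM (below the diagonal) and from deviations from the 6 group means (above). Dentate genes pair positively with Prox1 (0.34 to 0.55) and CA1 genes pair negatively with it (-0.37 to -0.23).

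The genes whose pattern over the 36 libraries was most like that of each member were sought among 17509 named genes. Prox1 was closest to Kif26b (r = 0.86), Dgkh (0.85) and Npnt (0.85), and Dsp to Dapk1 (0.82), Sdf2l1 (0.82) and Lyst (0.81). Tdo2 was closest to Klhl20 (0.77), Ryr2 (0.72) and Extl2 (0.70), and Trpc6 to St3gal1 (0.78), Cc2d2a (0.76) and Dbpht2 (0.74). Among the CA1 genes, Wfs1 was closest to Doc2b (0.76), Utp25 (0.69) and Htr1b (0.69), Fibcd1 to Gm2115 (0.83), Stum (0.81) and Crim1 (0.78), and Mpped1 to Mal2 (0.84) and Plcl2 (0.84). Rgs14 was closest to F730043M19Rik (0.72), Skida1 (0.71) and Cidea (0.69), and Amigo2 to Slc66a2 (0.75), Slc39a14 (0.75) and Nt5e (0.73). Iyd had the lowest likeness of the 10, with Amd1 (0.65), Nmbr (0.64) and Cldn22 (0.61).

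Other markers of the same fields were set beside the members. Of 8 further dentate granule genes, all 8 had a positive r with Prox1 (median 0.64, up to 0.83), 7 with Dsp (median 0.30), 7 with Tdo2 (median 0.42) and 6 with Trpc6 (median 0.10). By genotype in the pooled fit, 1 of the 8 was called, C1ql2, a synaptic organiser secreted from mossy fibres, which was higher in mutants (log2 fold change 0.74, SE 0.15, adjusted p = 0.00898). Without the 2 libraries it was 0.84 (SE 0.14, adjusted p = 0.000429). The distance of C1ql2 and the other marker genes from Kdm5b was not measured. Linkage of a strain haplotype to the allele was therefore not tested for them. Dock10 had a log2 fold change of 0.13 (SE 0.05, adjusted p = 0.218), and C1ql3 one of 0.23 (SE 0.05, adjusted p = 0.191) at 1 h. The median over the 8 was 0.04 and 4 of them were positive. At 1 h alone C1ql2 was at 0.97 (SE 0.13, adjusted p = 0.0875), and at 1.11 (SE 0.08, adjusted p = 4.41e-05) without the library labelled WT 1 h male 1. Of the 6 further CA1 genes 0 were called, and all had a positive r with Mpped1 (median 0.51). Gpr161 had a log2 fold change of 0.19 (SE 0.08, adjusted p = 0.496) at 1 h.

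Among 6 further CA2 genes 0 were called with all libraries, and Cacng5, an auxiliary subunit of AMPA receptors, had a log2 fold change of 0.56 (SE 0.15, adjusted p = 0.0555) in the pooled fit. Pcp4, a calmodulin regulator, was at 0.22 (SE 0.06, adjusted p = 0.0582), and Sostdc1 at -0.84 (SE 0.36, adjusted p = 0.249). Both Cacng5 (0.51, SE 0.13, adjusted p = 0.0263) and Pcp4 (0.22, SE 0.06, adjusted p = 0.0428) were called without the 2 libraries. Of 6 further CA3 genes, again 0 were called, with Bok at 0.20 (SE 0.08, adjusted p = 0.187) and the adhesion protein Nectin3 at -0.15 (SE 0.07, adjusted p = 0.254). Among hilar mossy cell markers, Drd2 was at 0.48 (SE 0.16), Calcrl at 0.14 (SE 0.06) and Csf2rb2 at -0.31 (SE 0.10), with adjusted p of 0.122, 0.284 and 0.121. Of the markers of immature granule neurons, Igfbpl1 was at 0.61 (SE 0.20), Eomes at 0.70 (SE 0.34) and Neurod1 at -0.19 (SE 0.06), with adjusted p of 0.117, 0.328 and 0.0771. In the ventral hippocampus list, Trhr was at 0.43 (SE 0.18, adjusted p = 0.251) and the other 2 genes were lower without reaching an unadjusted p under 0.05.

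**Figure D5:**
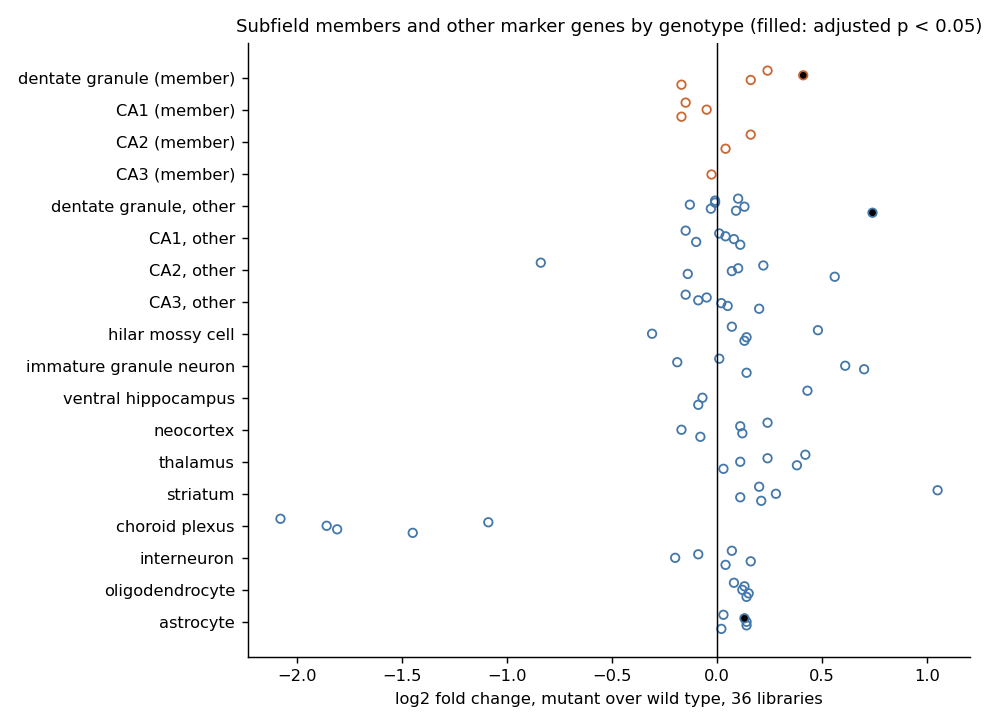
Pooled log2 fold change of mutant over WT (36 libraries) for the subfield members (orange) and the other marker genes by list (blue), with genes at an adjusted p under 0.05 filled. Tdo2 (0.41), C1ql2 (0.74) and Gja1 (0.13) are the filled points, and all 5 choroid plexus genes lie between -2.08 and -1.09.

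Markers of other tissue were compared between genotypes beside the Tdo2 result. All 5 choroid plexus markers had a negative log2 fold change at an unadjusted p under 0.05, where 15.2% of all genes reached that p in either direction, and none passed adjustment with all libraries (adjusted p from 0.0673 to 0.197). Ttr, the main transcript of that tissue, had a log2 fold change of -2.08 (SE 0.82). Folr1, Kcnj13, Clic6 and Kl were at -1.81, -1.86, -1.45 and -1.09. Kl was called without the 2 libraries (-1.24, SE 0.30, adjusted p = 0.02), and Folr1, Kcnj13, Clic6 and Ttr were then at -2.19, -2.22, -1.79 and -2.66 with adjusted p from 0.0517 to 0.0756. Their summed level spanned 42.2 to 7910.5 CPM over WT libraries and 52.6 to 3631.2 CPM over mutant libraries, with no marker at 0 in any library. Tdo2 had a median r of -0.25 with these 5 genes and Rgs14 one of -0.51. All 5 thalamus and all 5 striatum markers were positive in mutants with 0 called, and summed thalamus markers spanned 36.1 to 69.0 CPM over WT libraries and 40.2 to 128.3 CPM over mutant libraries. Summed striatum markers spanned 21.9 to 44.3 CPM and 24.2 to 64.6 CPM, in the same order. Neocortex markers spanned 68.4 to 165.2 CPM over WT libraries and 85.9 to 167.7 CPM over mutant libraries, with 0 of 5 called Rorb at a log2 fold change of 0.12 (SE 0.05, adjusted p = 0.214) and, at 1 h, Scnn1a at 0.27 (SE 0.12, adjusted p = 0.528). In the thalamus and striatum lists, Tcf7l2 was at 0.24, Tnnt1 at 0.42 and Rgs9 at 0.20, and at 0 h Adora2a was at 0.59. The part of dissection in the Tdo2 difference was not tested.

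Glial and interneuron lists were read in the same way. All 5 astrocyte markers were positive in mutants and 1 was called, the gap junction gene Gja1, at a log2 fold change of 0.13 (SE 0.03, adjusted p = 0.0352), which lost the call without the 2 libraries (adjusted p = 0.0557). Gfap and Aqp4 were each at 0.14 (SE 0.05), with adjusted p of 0.128 and 0.181. Summed astrocyte markers lay between 1319.9 and 1702.9 CPM over WT libraries and between 1501.1 and 1746.9 CPM over mutant libraries. Oligodendrocyte markers, of which 0 of 5 were called and 0 had an unadjusted p under 0.05, lay between 4214.6 and 8498.9 CPM over WT libraries and between 4927.0 and 10179.1 CPM over mutant libraries. Fibcd1 had a negative r with all 5 of them (median -0.52), as did Rgs14 (median -0.40) and Mpped1 (median -0.34). Among 5 interneuron genes 0 were called with all libraries, with Gad2 at 0.16 (SE 0.05, adjusted p = 0.0852) Pvalb at -0.20 (SE 0.06, adjusted p = 0.074) and, at 1 h, Sst at -0.12 (SE 0.05, adjusted p = 0.526). Gad2 was called without the 2 libraries (0.15, SE 0.04, adjusted p = 0.0348). Library size was little related to the members, with r between -0.19 (Trpc6) and 0.12.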

How the data were processed

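Poly(A) RNA of dorsal hippocampus was sequenced as paired reads. Per the labels and the study's methods, the authors aligned reads with STAR 2.7.8a to mm10 and deposited raw gene counts from featureCounts 2.0.1, without normalisation. The strand setting and the annotation release were not given in the sources used here. Symbols were taken from RefSeq tables for 25275 of 27179 Entrez identifiers, and those without one held 1.28% of counts. Another 8 samples of the series were not analysed here.

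Members and marker lists were chosen with earlier results of these data known. Genes were filtered with filterByExpr (minimum count 10, with the groups in each fit) and scaled by TMM. They were tested with edgeR 4.0.16 (R 4.3.3) quasi-likelihood F-tests (robust, two-sided) with labelled sex as covariate. P-values were adjusted by Benjamini-Hochberg over all genes tested, and genes at an adjusted p under 0.05 were called. The pooled genotype fit had time and sex terms over 36 libraries, single comparisons used 12 libraries, and interactions 24. The SE is the fold change divided by the square root of F. CPM are TMM-scaled. CPM per kb used the union of GENCODE vM21 exons. Correlations used log2 CPM with a prior count of 2. The study's methods used DESeq2, run here as an alternative (version 1.42.0). The scripts were tested on simulated data.

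All 10 members were named. A fold change with SE and adjusted p was given wherever the unadjusted p was under 0.05, other genes of the lists were named by the same rule for genotype, and up to 3 most alike genes were given per member. Some genes that these rules name are not reported here. A few values outside the rule (other members in the pooled fit, extremes of ranges) were added after they were seen. Exons overlap those of an opposite-strand gene over 1.59% of Prox1, 5.17% of Dsp and 1.83% of Amigo2, where reads of both genes could not be told apart without strand. Numbers were not treated as pairs, since deviations of same-numbered libraries of different groups had a median r of -0.0136. Labels give 1 mouse per library.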

Additional observations from a re-analysis of the deposited data

Results flagged for a closer look

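In a check of each member in each group of 6 libraries (60 groups), 1 library lay far from the others: Prox1 was at 121.3 CPM in WT 3 h female 3, where the next highest library of the group was at 82.3 CPM, a gap of 0.734 of the range. Chance alone flags about 1 in 20 such groups. The same library held the highest level of its group for 6 of the 10 genes. No member differed between genotypes in its response to training by the interaction test.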

How the results depend on the processing

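Results were recomputed with RLE scaling, DESeq2 with and without sex, dropping the sex term, a joint fit of all 36 libraries, no filter, at least 10 counts in every library, a replicate block, without the 2 libraries that went against their labelled sex, and leaving out each library in turn. The recomputed values were numbers of members called and fold changes, levels and correlations of members. Of these, 827 were kept, in direction and side of the threshold where they have these, and 0 reversed. Many were numbers called that stayed at 0, or came from fits that share all but 1 library. The Tdo2 difference was called under every one, with a log2 fold change from 0.38 to 0.45 and adjusted p from 0.00365 to 0.0462. Among the members the exception was Trpc6 in WT at 3 h, where DESeq2 with sex gave 1 called member in place of 0 (log2 fold change -0.45, adjusted p = 0.0323). The cause was not tested. Other marker genes are not among these values, and some of their calls changed without the 2 libraries, as given above. With the replicate number as a block, Tdo2 was at 0.41 (adjusted p = 0.0191) and the number of members called was 1 in the pooled genotype fit and 0 in the other comparisons. Deviations of same-numbered libraries had a median r of -0.0136 over 90 pairs, with 13 over 0.1. For different-numbered libraries of the same labelled sex the median was -0.0441 over 180 pairs, with 11 over 0.1. Values over 0.1 were thus more frequent among same-numbered pairs, though both medians were near 0. Iyd had the fewest reads of the members, with 62 in its lowest library.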
